A study of Zea mays with 4 samples.

Results

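Transcripts of 10 photosynthesis genes were followed in developing maize kernels that carry a mutation in bt2 and in wild-type kernels. The genes were taken by name, as photosystem I and II subunits, chlorophyll-binding antenna proteins and the small subunit of rubisco. They are 10 of the 1108 genes that the array annotation gives as the only symbol of a probe set (the named genes below). These 10 are read by 13 of 17620 maize probe sets. Probe sets with more than 1 symbol were not used to name genes. The photosystem I gene psah1 was chosen by its known difference between these mutant and wild-type arrays, so that difference is described and not tested. The other 9 were taken by a name pattern and not by their own values, but the pattern was set with earlier results of these data known. Most maize probe sets have no gene name in that annotation, so the 10 genes are not all the photosynthesis genes the array may read.

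The mutant samples carry the allele bt2-H2328 of Brittle2, the gene of a small subunit of the ADP-glucose pyrophosphorylase, which supplies the glucosyl donor for starch. Mutant and wild type had 2 samples each, taken 35 days after pollination from untreated greenhouse plants, with 1 array per sample. Mutant 2 started from 17 µg of RNA and the other samples from 20 µg. The sources used here do not give the genetic background, the number of plants or whether each sample came from its own plants. Levels are log2 values from GCRMA, which uses probe sequence to correct background and gives 1 normalized value per probe set.

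Photosynthesis begins when antenna proteins pass light energy to photosystem II, which splits water, and photosystem I, which reduces ferredoxin. Rubisco then fixes carbon dioxide. In the leaf of maize, a C4 plant, carbon is first caught in mesophyll cells and rubisco works in the bundle sheath. The starchy endosperm, the bulk of the kernel, is a storage tissue that is not green.

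A log2 value of 4 served as the floor of detection, and 57.5% to 58.6% of maize probe sets reached it on each array. bt2 fell, from 12.67 and 12.64 in the wild types to 10.13 and 10.12 in the mutants. zp27, a gamma zein of the endosperm, was high on every array (13.43 to 13.88). So was ole1, an oleosin of the embryo (14.26 to 14.63). Not all marker genes of these tissues were high. The embryo marker lec1 read 2.10 to 2.12, and the endosperm marker dzs18 reached the floor on wild type 2 alone, at 5.21. The leaf marker pep1, the C4 form of phosphoenolpyruvate carboxylase, read 1.95 to 1.97 on all 4 arrays and was under the floor. The other gene of the leaf list, me3, an NADP-malic enzyme described with the C4 genes below, was over the floor on all 4 arrays.

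Photosynthesis transcripts were mostly undetected in both kinds of kernel. No gene of the 10 reached the floor on either wild-type array, against 69.3% and 69.9% of the 1108 named genes. On the mutant arrays, 3 genes reached it on mutant 1 and 2 on mutant 2, against 68.2% and 69.0% of named genes. The genes on both mutant arrays were psah1 and psbq1, and rbcs1 was on mutant 1 alone.

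**Figure D1:**
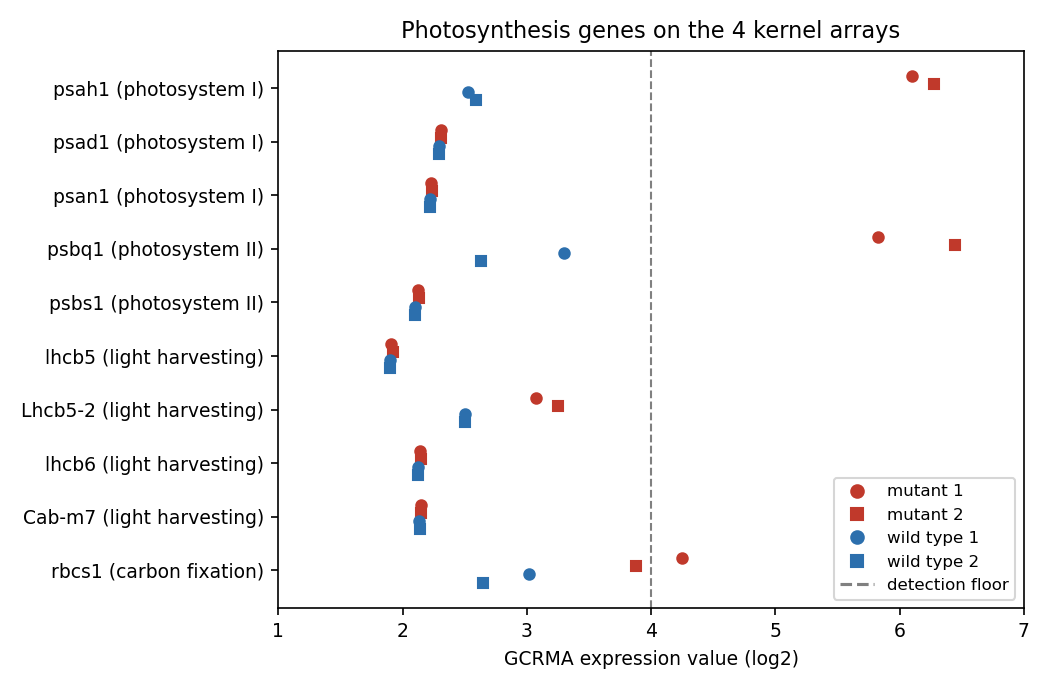
GCRMA values (log2, horizontal axis) of the 10 photosynthesis genes, each by its probe set with the highest mean, on the 2 mutant arrays (red) and the 2 wild-type arrays (blue), with circles for replicate 1 and squares for replicate 2. psah1 and psbq1 lie right of the dashed floor at 4 on both mutant arrays and left of it on both wild-type arrays, rbcs1 crosses it on mutant 1 alone, and 7 genes stay left of it on every array.

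Among the photosystem I genes, psah1 was the gene seen in the mutants. It encodes subunit H, a small membrane subunit at which the antenna of photosystem II can dock. Its probe set (gene LOC541685) read 6.10 in mutant 1 and 6.28 in mutant 2, and 2.53 in wild type 1 and 2.59 in wild type 2. Both mutants were high and both wild types lay under the floor, with a gap of 3.51 between the nearest samples.

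The difference in psah1 was 3.63 in log2, with mutants 0.18 apart and wild types 0.06 apart. Because the wild types have only a bound, the mutant level is given as at least 4.56-fold higher, measured from the floor of 4. This bound holds for that floor and for the deposited scale, and it changes with either. The other photosystem I genes did not show this. psad1, whose product docks ferredoxin on the stromal side, read 2.31 in both mutants and 2.29 in both wild types, and psan1, a subunit on the lumen side, read 2.23 and 2.24 against 2.22 in both wild types. The values of psad1 and of psan1 each lay within 0.02 across all arrays and under the floor, so psah1 alone of these 3 genes was detected.

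The photosystem II genes divided in the same manner. psbq1 encodes an extrinsic protein of the water-splitting side, also called oxygen-evolving enhancer protein 3. Its probe set (gene LOC542279) read 5.83 in mutant 1 and 6.45 in mutant 2, and 3.30 in wild type 1 and 2.63 in wild type 2. The mutants were high and the groups did not overlap, with a gap of 2.53 between mutant 1 and wild type 1.

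psbq1 rose by 3.18 in log2 (SE 0.35, n = 2 arrays per group), with an adjusted p of 0.00842 by limma, fitted over all 10458 probe sets that had a value of 4 or more on at least 2 arrays. Measured from the floor on the deposited scale, it was at least 4.41-fold higher in the mutants, a bound with the same limits as that of psah1. The mutants were 0.62 apart and the wild types 0.67 apart, a wider spread than in psah1. psbq1 entered the test only through its high mutant values, so it had to differ between the groups, and it was the only gene of the 9 that entered. In the same fit 43.2% of probe sets passed an adjusted p of 0.05, 21.0% higher and 22.1% lower in the mutants. Without 1 array the adjusted p was 0.0733 (without mutant 1), 0.0734 (without mutant 2), 0.0492 (without wild type 1) and 0.0805 (without wild type 2), at differences of 2.84 to 3.51. With 1 array left in a group, the spread comes from the other group and the lone sample is assumed to vary like it. None of the 10458 probe sets tested passed limma without mutant 1, mutant 2 or wild type 2, and this limit holds for every rise and fall named here.

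psbs1, the photosystem II protein by which plants shed excess light energy as heat, stayed at background. It read 2.12 and 2.13 in the mutants and 2.10 in both wild types.

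A transcript above the floor on both mutant arrays and under it on both wild-type arrays was uncommon on this array. It was seen in 190 maize probe sets, 1.08% of all, and the opposite pattern in 295, or 1.67%. By 1 probe set per gene, 13 of 1108 named genes showed it, or 1.17%, and psah1 and psbq1 are among these 13. psah1 was chosen for this pattern, which leaves psbq1 as 1 of the 9 other genes. Among the 190 probe sets, 26 had a difference at least as large as that of psah1 and 39 at least as large as that of psbq1.

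**Figure D2:**
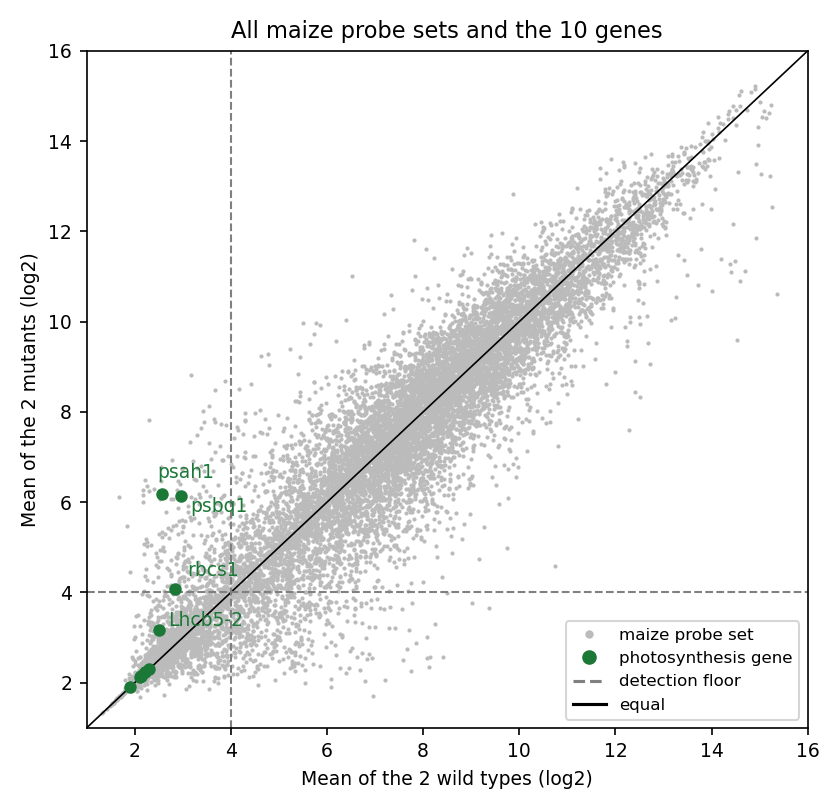
Mean log2 GCRMA value of the 2 mutants (vertical axis) against that of the 2 wild types (horizontal axis) for 17620 maize probe sets (grey) and the 10 photosynthesis genes (green), with dashed lines at the floor of 4 and a solid line of equality. psah1 and psbq1 lie in the upper left field, over the floor in the mutants and under it in the wild types, and most of the other genes lie on the line of equality near 2.

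The antenna genes were not detected. lhcb5 and Lhcb5-2 carry the name of CP26 and lhcb6 that of CP24, both minor chlorophyll-binding proteins between the core of photosystem II and its main antenna, and Cab-m7 is named as a chlorophyll a/b-binding protein. lhcb5 read 1.91 and 1.92 in the mutants and 1.90 in both wild types. Cab-m7 read 2.15 in both mutants and 2.13 and 2.14 in the wild types. lhcb6 was read by 4 probe sets, and all of them stayed between 1.62 and 2.15 on every array. Their names share stems, so they may not be independent reads of the gene. With kernel arrays only, a probe set that cannot read its transcript is not told from an absent transcript, which limits every gene called undetected here.

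Lhcb5-2 departed from this within the range under the floor. Its probe set (gene LOC542320) read 3.07 and 3.25 in the mutants against 2.50 in both wild types, a difference of 0.66. The mutants were the higher samples, but no array reached the floor and no fold is given. Of 6824 maize probe sets under the floor on all 4 arrays, 0.674% were higher in the mutants by as much or more. The 99th percentile of the difference was 0.58. In the other direction, with the mutants lower, the 1st percentile was -0.66.

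The rubisco small subunit gene rbcs1 stood at the floor. Its probe set (gene LOC542212) read 4.25 in mutant 1, 3.88 in mutant 2, 3.02 in wild type 1 and 2.65 in wild type 2. The mutants were higher, with a gap of 0.86 between mutant 2 and wild type 1 and a spread of 0.37 within each group. The difference was 1.23, and since only mutant 1 reached the floor, rbcs1 was not among the probe sets tested and no fold is given. Rubisco small subunits form a gene family of near-identical copies, so this probe set may read more than 1 gene.

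Small differences in the genes under the floor on every array ran the same way and carry no call. By the probe set with the highest mean, both mutants read above both wild types in all 10 genes, among them psah1, chosen for its difference. Mutants were above wild types in this way in 44.0% of named genes and 52.5% of maize probe sets. Apart from Lhcb5-2, the genes under the floor on every array were 6, read by 9 probe sets at 1.62 to 2.31, and their differences were 0.005 to 0.025. Over the whole array, 73.7% of the 6824 probe sets under the floor were higher in both mutants than in both wild types, with a median difference of 0.02. A test without the filter on low values called 6 of the 9 genes, among them psad1, lhcb6 and psbs1 at differences of 0.02 to 0.025, against 29.9% of all probe sets. It also called 1875 of the 6824 probe sets under the floor, 1811 of them higher, at a median size of 0.025. In that test limma gave an adjusted p of 0.0430 for rbcs1 and 0.0272 for Lhcb5-2.

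All differences above depend on the scale of the arrays. Bacterial poly-A transcripts, of the kind spiked into RNA samples, gave higher values in the mutants than in the wild types in 36 of 36 probe sets. These were picked by the names dap, lys, phe and thr, so many read the same transcript and are not independent. With arrays centred on these controls, each difference shifted by -1.23. On that scale the difference was 2.40 in psah1 and 1.94 in psbq1. The shift is as large as the whole difference of rbcs1 and larger than that of Lhcb5-2. Its part in these results was not tested.

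Of the genes that carry electrons beyond the photosystems, the ferredoxins FDX6 and fdx3 were detected and the leaf form fdx2 was not. Of 6 further electron transport and thylakoid genes, 2 rose, none fell, 2 did not pass and 2 were not kept. The share of named genes that rose in the same fit was 20.9% and the share that fell 29.4%. FDX6, named as a ferredoxin, read 11.50 and 11.84 in the mutants against 10.45 and 10.26, and rose by 1.31 (SE 0.16, limma adjusted p 0.00912). Both mutants were above both wild types. fdx3, a ferredoxin known from maize roots, rose by 0.37 and its second probe set by 0.36, which became -0.86 and -0.88 when centred on the poly-A controls, where FDX6 was at 0.08.

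fdx2, a ferredoxin of the leaf, read 2.18 to 2.21 and was under the floor on all 4 arrays. fnr1, a ferredoxin-NADP reductase, read 7.14 and 7.15 against 7.14 and 7.08, at a difference of 0.04 that did not pass. Another kept probe set of fnr1 differed by -0.18 and did not pass, and its remaining probe sets were under the floor. hcf106, of the thylakoid protein import machinery, read -0.19 as a difference and did not pass, and Hcf106C lay at the floor with 3.69 to 4.16. The median difference of the 4 genes kept was 0.20, against -0.18 over the 781 named genes kept.

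Carbon fixation genes in the plastid were at background. rca1, the activase that keeps rubisco open to its substrate, read 2.15 to 2.17, and gpa1 and gpb1, named as subunits of the plastid glyceraldehyde phosphate dehydrogenase, read 2.02 to 2.04 and 1.92 to 1.93. All 3 genes of that list were under the floor on all 4 arrays, so none was tested.

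The C4 genes detected in the kernel differed in direction. Of 5 genes, 2 rose, 1 fell, 1 did not pass and pep1 was not kept, beside 20.9% of named genes that rose and 29.4% that fell, with a median difference of 0.92 over the 4 kept. me3, a plastid NADP-malic enzyme, read 6.45 and 6.75 against 5.38 and 5.46 and rose by 1.18 (SE 0.18), and mdh6, an NADP-malate dehydrogenase, read 7.80 and 7.87 against 7.05 and 6.65 and rose by 0.98 (SE 0.19). Their limma adjusted p values were 0.0129 and 0.0195. Both mutants exceeded both wild types in each, but on the poly-A scale me3 was at -0.05 and mdh6 at -0.24.

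ppdk1, the pyruvate phosphate dikinase, is known in both leaf and endosperm. It read 10.55 and 10.28 against 12.35 and 12.80 and fell by 2.16 (SE 0.20, limma adjusted p 0.00760), 4.47-fold. Its other probe sets above the floor differed by -2.67, -2.33 and -0.84, and all 3 passed. pdrp1, the regulatory protein of that enzyme, read 5.19 and 6.29 against 5.54 and 4.23; the groups overlapped and the difference of 0.86 did not pass.

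In tetrapyrrole synthesis, from which chlorophyll, haem and the phytochrome pigment derive, some genes were detected and oy1 was not. oy1, a subunit of the magnesium chelatase that opens the chlorophyll branch, read 2.08 to 2.10 on all 4 arrays. les22, a uroporphyrinogen decarboxylase upstream of both branches, read 4.28 and 4.26 against 4.48 and 4.28, and elm1, which makes the phytochrome pigment, read 6.03 and 6.09 against 5.49 and 5.73; neither passed. The list of 4 genes had 1 rise, por, at 3.64, but the annotation gives no more than this symbol, which does not tell protochlorophyllide reductase from other enzymes. Its wild types were far apart, at 7.52 and 5.27, below both mutants at 10.07 and 10.01. The median difference of the 3 genes kept was 0.45.

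Regulators of chloroplast development and light receptors were mostly undetected. Of 7 genes, 6 were under the floor on all 4 arrays, among them glk1, of the family of greening regulators around golden2, at 2.11 to 2.14. The gene kept, sig2A, named as a sigma factor of the plastid RNA polymerase, read 3.76 and 4.14 against 5.52 and 4.80 and fell by 1.21 (SE 0.32, limma adjusted p 0.0418). It was kept through its wild types, and mutant 1 lay under the floor, so the size of this fall rests in part on a value under the floor. phot1, a blue light receptor, read 3.56 in mutant 2 and 2.35 to 2.45 on the other arrays, so that 1 mutant sample carries its difference.

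**Figure D3:**
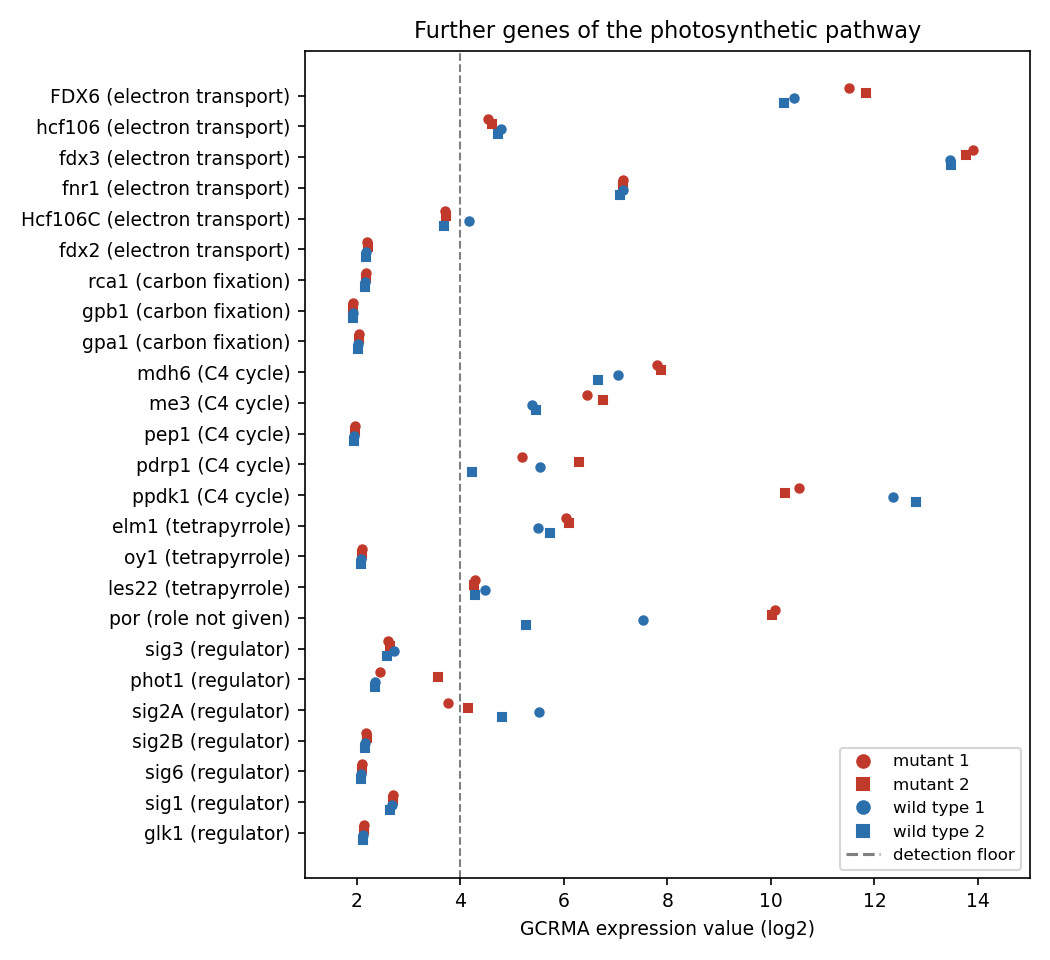
GCRMA values (log2, horizontal axis) of 25 further genes of electron transport, carbon fixation, the C4 cycle, tetrapyrrole synthesis and chloroplast regulation, by probe set with the highest mean, on the mutant arrays (red) and wild-type arrays (blue), with circles for replicate 1 and squares for replicate 2. The carbon fixation genes, fdx2, pep1, oy1 and glk1 lie near 2 on all arrays, left of the dashed floor at 4, while FDX6, me3 and mdh6 are higher and ppdk1 lower in the mutants.

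Genes with values most like those of psah1 were sought among 834 kept probe sets of genes with a name other than a locus number, by the root mean square of the differences between the values after centring each probe set on its mean over the 4 arrays. The nearest was ciszog1, a zeatin glucosyltransferase, at 0.0660 in log2, with mutants at 7.74 and 7.90 and wild types at 4.20 and 4.38. AGA2, an alkaline alpha-galactosidase, followed at 0.156, incw1, a cell wall invertase, at 0.358, mrpa1, an ABC transporter, at 0.362 and sat1, a serine acetyltransferase, at 0.428. psbq1 stood at 0.378 by the same measure. With 4 arrays in 2 groups, this likeness measures mainly an equal difference between the groups.

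Markers of kernel tissues moved beside these genes, and their counts are to be read beside the 20.9% of named genes that rose and the 29.4% that fell. Of 7 embryo marker genes, 3 rose, none fell, 3 did not pass and 1 was not kept, and their summed level was 16.84 and 16.77 in log2 in the mutants against 16.57 and 16.45 in the wild types. The dehydrin gene rab17 rose by 0.41 and vp1, a transcription factor of seed maturation, by 0.47, while on the poly-A scale they read -0.82 and -0.77. Another kept probe set of vp1 differed by 0.065 and did not pass, with wild types at 4.73 and 7.07. The remaining vp1 probe sets were under the floor. Of 11 starchy endosperm markers 9 fell, bt2 itself included, none rose, 1 did not pass and 1 was not kept, at summed levels of 15.58 and 15.28 against 17.24 and 17.21. The alpha zein gene fl2 fell by 3.68.

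Of 4 aleurone markers 1 rose, 1 fell, 1 did not pass and 1 was not kept, at summed levels of 10.83 to 10.85 against 10.87 to 10.91. dek1, a calpain needed for aleurone fate, read 8.89 and 8.70 against 7.57 and 6.75, and Nkd1, an aleurone transcription factor, 9.20 and 8.91 against 10.03 and 10.11. Of 7 basal transfer layer markers 5 fell, none rose, 1 did not pass and 1 was not kept, but meg2, betl3 and betl1c among these falls were under the floor in both mutants and were kept only through their wild-type values, so they had to differ. The summed levels were 9.16 to 9.29 against 10.26 to 10.83. Of 7 genes listed for pericarp and maternal tissue 2 fell (zag2 and bde1), none rose, 2 did not pass and 3 were not kept. Their summed levels were 9.79 to 10.26 against 10.64. The pericarp pigment regulator p1 was under the floor in all its 5 probe sets. Whether the 4 kept genes, ZAG1, zag2, bde1 and ZMM2, mark pericarp in these kernels was not tested. The part of tissue make-up in the values of psah1 and psbq1 was not tested, and in whole kernels fewer cells of a type and less RNA per cell cannot be told apart.

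The sizes of the differences in psah1 and psbq1 depended on scale more than on any single array. Across the settings tried, that of psah1 ran from 2.02 to 3.72 and that of psbq1 from 1.86 to 3.51. The lowest value of each came from adding 16 on the linear scale before taking logs, which compresses low values.

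**Figure D4:**
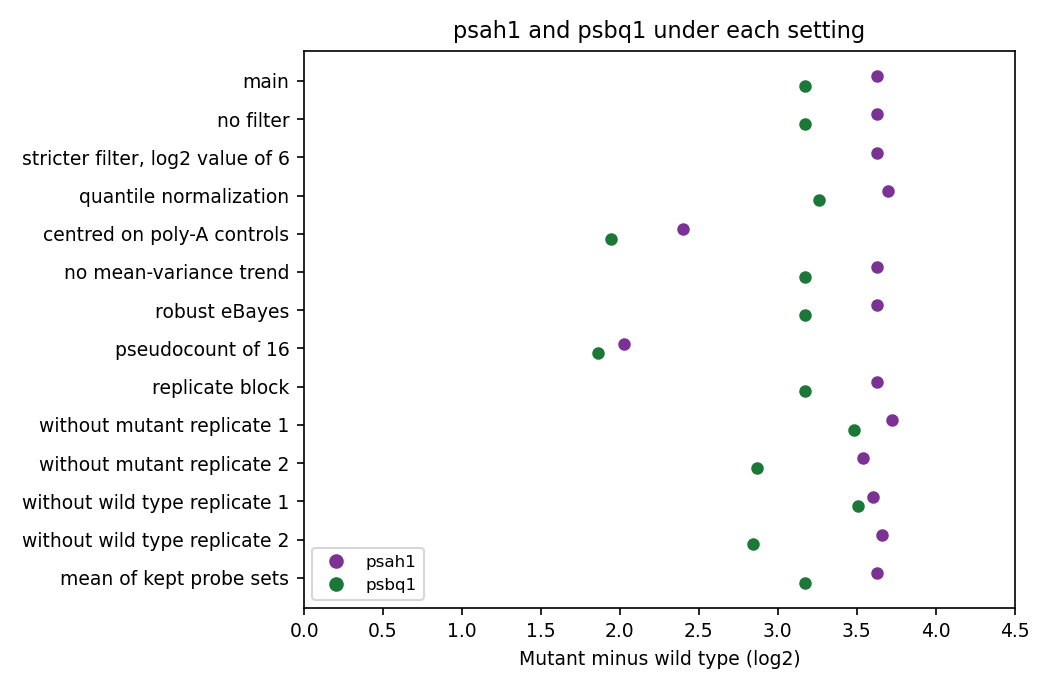
Difference between mutants and wild types (log2, horizontal axis) for psah1 (purple) and psbq1 (green) in the setting reported (top) and in each alternative setting (rows). Leaving out any array kept psah1 between 3.54 and 3.72 and psbq1 between 2.84 and 3.51, while the poly-A scale gave 2.40 and 1.94 and the pseudocount of 16 gave 2.02 and 1.86; psbq1 has no value under the stricter filter.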

How the data were processed

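The deposited table gives a log2 value for each probe set of 1-colour Affymetrix maize arrays; per the submitters' processing notes the tool was GCRMA. The log base was read from the values, and the sources used here state neither the GCRMA version nor whether arrays were normalized together. Of 17734 probe sets, 113 were controls and 1 lacked values. Genes were named by the platform annotation, with RefSeq names (Zm-B73-REFERENCE-NAM-5.0) through Entrez identifiers; the files name no genome build, so no coordinates are given.

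A gene was represented by its probe set with the highest mean. Probe sets with a value of 4 or more on at least 2 arrays were tested for mutant against wild type by limma 3.58.1 under R 4.3.3 (lmFit and trended eBayes, two-sided, Benjamini-Hochberg over the 10458 kept, threshold 0.05), which was tested on simulated data. Folds against values under 4 are bounds from that value on the deposited scale.

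Members and lists were chosen with earlier results of these data known. Named were all members, bt2, up to 4 genes per further list by smallest p, and the 5 nearest to psah1; other list members were named after their values were seen. Matches that are other genes were left out, namely sbp2, sbp3, sbp4, sbp6, sbp7, ub2, GAPN, ATP2, PDK1, PDK2, por1, por2, the haemoglobin gene GLB1 and, for the transfer layer, mrpa1. Alternatives changed the filter, normalization, scaling, variance model, pseudocount, block, probe set rule, threshold and arrays. Figures used matplotlib 3.10.9. The number of arrays limits the precision, and p-values reflect only how far these samples spread, perhaps for technical reasons.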

Additional observations from a re-analysis of the deposited data

How the results depend on the processing

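The number of probe sets past the limma threshold, 4514, was 1134 at an adjusted p of 0.01 and 8536 when centred on the poly-A controls, where 304 were higher and 8232 lower. Without 1 array it ran from 0 to 1195: it was 0 without mutant 1, mutant 2 or wild type 2, with 4523, 4617 and 3633 at an unadjusted p under 0.05, and 1195 without wild type 1. Of the photosynthesis genes other than psah1, 1 passed, psbq1; this count was 6 with no filter, where 9 genes were tested, 0 with the stricter filter, where none was, and 0 to 1 without 1 array. No filter also changed the split over all probe sets to 3484 higher and 1778 lower. With the replicate number as a block 3444 probe sets passed, and the adjusted p of psbq1 was 0.0319; same-numbered samples share only a number, and their deviations correlated at r = 0.0213 over probe sets, which are not independent. psbq1 was kept only through its high mutant values, so its direction and call under other settings are no sign of stability. With a detection floor of 3, 5 or 6, chosen after seeing the data, 4, 2 and 1 of the 10 genes lay at or above it on both mutant arrays. Signal near background limits all 10 genes, psah1 and psbq1 through their wild types.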
